A study of Mus musculus with 4 samples.

Results

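A set of 10 regulators and surface markers of hair follicle stem cells was followed gene by gene through single-cell RNA libraries of mouse epidermis: Sox9, Lhx2, Nfatc1, Tbx1, Foxc1, Nfib, Runx1, Lgr5, Lgr6 and Cd34. They were taken as a given list of 10 of the 32285 genes in each matrix, and all 10 were found in all 4 matrices. The study held 4 libraries, 1 per group. Control mice were DNp63fl/fl, with loxP sites in the gene for the ΔN isoform of p63 (Trp63). Experimental mice were DNp63fl/fl;K14-CreT2, in which the keratin 14 promoter, active in basal keratinocytes, drives the Cre recombinase. Both genotypes received tamoxifen by gavage at 200 mg/kg each day for 5 days, and keratinocytes were harvested at 1 day or at 1 week after ablation. Animals were 2 to 17 months old, with males and females in equal parts. How many animals each library pooled, and their ages, are not given. Back skin was digested with trypsin, either overnight in the cold or for 2 h at 37 °C, and the labels do not tie a digestion to a library. A 3′ kit served at 1 day and a 5′ kit at 1 week, so differences were taken only between the experimental and control library of a time point.

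The hair follicle renews itself from stem cells that rest in the bulge, a part of its outer root sheath below the sebaceous gland. Bulge stem cells stay quiet for most of the hair cycle and feed the growing follicle when Wnt signalling rises and BMP signalling falls. Cells of the upper follicle and of the interfollicular epidermis, the skin surface between follicles, are maintained largely by their own progenitors, and p63 is a master transcription factor of the basal cells of all these compartments.

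The first group of members, the transcription factors, opens with Sox9 (chromosome 11, 112782224 to 112787760, plus strand, build GRCm38), which specifies follicle stem cells and keeps them from an epidermal fate. Lhx2 (chromosome 2, 38339281 to 38369733, plus strand) maintains the bulge and its adhesion. Nfatc1 is a calcium-regulated factor that holds bulge cells in quiescence. Tbx1 (chromosome 16, 18580979 to 18590671, minus strand) supports long-term self-renewal of these cells. Foxc1 (chromosome 13, 31806633 to 31812476, plus strand) returns activated stem cells to rest. Nfib (chromosome 4, 82290173 to 82705750, minus strand) guards the stem cell chromatin state and restrains signals to neighbouring melanocyte stem cells. Runx1 (chromosome 16, 92601466 to 92826149, minus strand) promotes the activation of stem cells at the start of a hair cycle. Lgr5 (chromosome 10, 115450311 to 115587780, minus strand) and Lgr6 (chromosome 1, 134983301 to 135105276, minus strand) encode R-spondin receptors that amplify Wnt signalling, Lgr5 in the lower bulge and hair germ and Lgr6 in the isthmus and interfollicular epidermis. Cd34 (chromosome 1, 194938819 to 194961279, plus strand) encodes a sialomucin on the cell surface that is used to sort mouse bulge cells. Positions are those of the GENCODE M21 annotation. Genes on the opposite strand overlap Lhx2, Nfatc1, Nfib, Runx1, Lgr5 and Cd34, a gene on the same strand (Gm11267) lies within Nfib, and whether the counting used strand is not given in the sources used here.

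Start-site sequences from RefSeq (GRCm38.p6) were found for 6 of the 10 members. The 250 bases before the start of Lgr6 and of Cd34 are printed because the results on the receptors and the surface marker turn on these members. Capitals mark CATG, the core of p53-family motifs, which reads the same on both strands.
Lgr6, chr1:135105277-135105526, minus strand: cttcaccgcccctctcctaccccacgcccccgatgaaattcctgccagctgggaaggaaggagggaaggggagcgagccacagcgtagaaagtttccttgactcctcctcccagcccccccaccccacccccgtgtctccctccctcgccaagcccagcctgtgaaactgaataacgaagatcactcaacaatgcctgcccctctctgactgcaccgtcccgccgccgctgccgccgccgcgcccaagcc
Cd34, chr1:194938571-194938820, plus strand: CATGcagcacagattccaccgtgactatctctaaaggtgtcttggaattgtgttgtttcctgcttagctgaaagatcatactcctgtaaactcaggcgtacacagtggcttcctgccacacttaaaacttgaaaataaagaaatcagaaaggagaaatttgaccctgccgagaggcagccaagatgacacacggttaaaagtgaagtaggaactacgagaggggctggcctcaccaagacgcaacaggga
CATG occurred in 3 of the 9 start sequences of the members, against 53.9% of 32851 mouse start sequences of the same length. A match or its absence in these windows describes the letters only.

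The 4 libraries held 18413 to 33552 barcodes, of which 5185 to 19340 cells were used, with a median of 3788 to 5687 UMIs per cell. Each UMI, a molecular barcode, stands for 1 RNA molecule caught from a cell. Levels (CPM) are UMIs of a gene per 1000000 UMIs of its cell class, differences are log2 ratios of the experimental over the control library, and brackets give 95% intervals. Within a class, a level or share of a gene given against another is the experimental value against the control one, and pairs joined by "and" give the control first. With 1 library per group no difference has a replicate check, and the intervals cover counting error only. Shares of positive cells count cells with at least 1 UMI after every cell was thinned to 2000 UMIs. The libraries of a time point shared 299 barcodes at 1 day and 661 at 1 week. Trp63 UMIs may come from sequence outside the deleted part, so their level does not check the deletion directly. Trp63 was nevertheless lower in the experimental library in each class compared, at 85.4 against 405 CPM in interfollicular-like cells and 302 against 427 CPM in bulge-like cells at 1 day.

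Cells were clustered without the members and named from markers of each compartment. Bulge-like cells numbered 1737 in the control and 1061 in the experimental library at 1 day, and 525 and 523 at 1 week. All 10 bulge markers were detected in them, with a 1-day sum of 15744 CPM in control and 12766 CPM in experimental cells. The 1-week sums were 22983 and 18773 CPM. There were 554 control and 364 experimental outer root sheath-like cells at 1 day, then 108 and 83. Their name is the least firm: at 1 day bulge markers summed to 16896 CPM in control and 9386 CPM in experimental cells, above the 3365 and 4722 CPM of the outer root sheath list itself. Upper follicle-like cells numbered 4115 and 2984, then 1066 and 892. Interfollicular-like cells numbered 9521 and 5304 at 1 day but 3365 and only 99 at 1 week. Immune cells, which express Runx1 and Nfatc1 but should lack most of the other members, served as a background for free RNA. For Sox9 they are a poor one, since its level there, 278 CPM in control and 305 CPM in experimental cells at 1 day, came from few of the immune cells (11.4% and 24.4% positive) and lay above the interfollicular level. Before thinning, their median depth was 2748.5 (control) and 3079 UMIs (experimental) at 1 day, then 3017 and 5330.5 UMIs.

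In the control library at 1 day the members marked the follicle. Lhx2, Tbx1, Lgr5 and Cd34 stood at 273, 74.3, 161 and 528 CPM in bulge-like cells and at 1.89, 1.20, 0.987 and 2.47 CPM in interfollicular-like cells. In upper follicle-like cells these 4 genes were also low, at 10.2, 3.65, 2.24 and 4.82 CPM, with intervals above those of interfollicular-like cells. Immune cells of this library held 7.77, 4.78, 8.37 and 8.97 CPM of them, so the upper follicle levels do not stand clear of background. Sox9 extended further up the follicle, from 1287 CPM in outer root sheath-like and 1087 CPM in bulge-like to 735 CPM in upper follicle-like and 37.1 CPM in interfollicular-like cells. Its intervals did not overlap between any of these neighbours at 1 day, while at 1 week bulge-like (1013 CPM) and outer root sheath-like cells (1001 CPM) had overlapping intervals. Foxc1 had the bulge and the upper follicle in the other order, from 155 CPM in outer root sheath-like through 119.9 CPM in upper follicle-like and 101 CPM in bulge-like to 5.26 CPM in interfollicular-like cells. Nfatc1, Nfib and Runx1 were highest in bulge-like cells among the 4 classes, at 215, 1173 and 330.3 CPM, and kept 27.2, 125 and 25.8 CPM in interfollicular-like cells. Lgr6 was also highest of the 4 classes in bulge-like cells, at 36.6 CPM, followed by 14.3 CPM in upper follicle-like cells. It differed from the rest in that its 9.15 CPM in interfollicular-like cells exceeded the 2.96 CPM in outer root sheath-like cells.

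**Figure D1:**
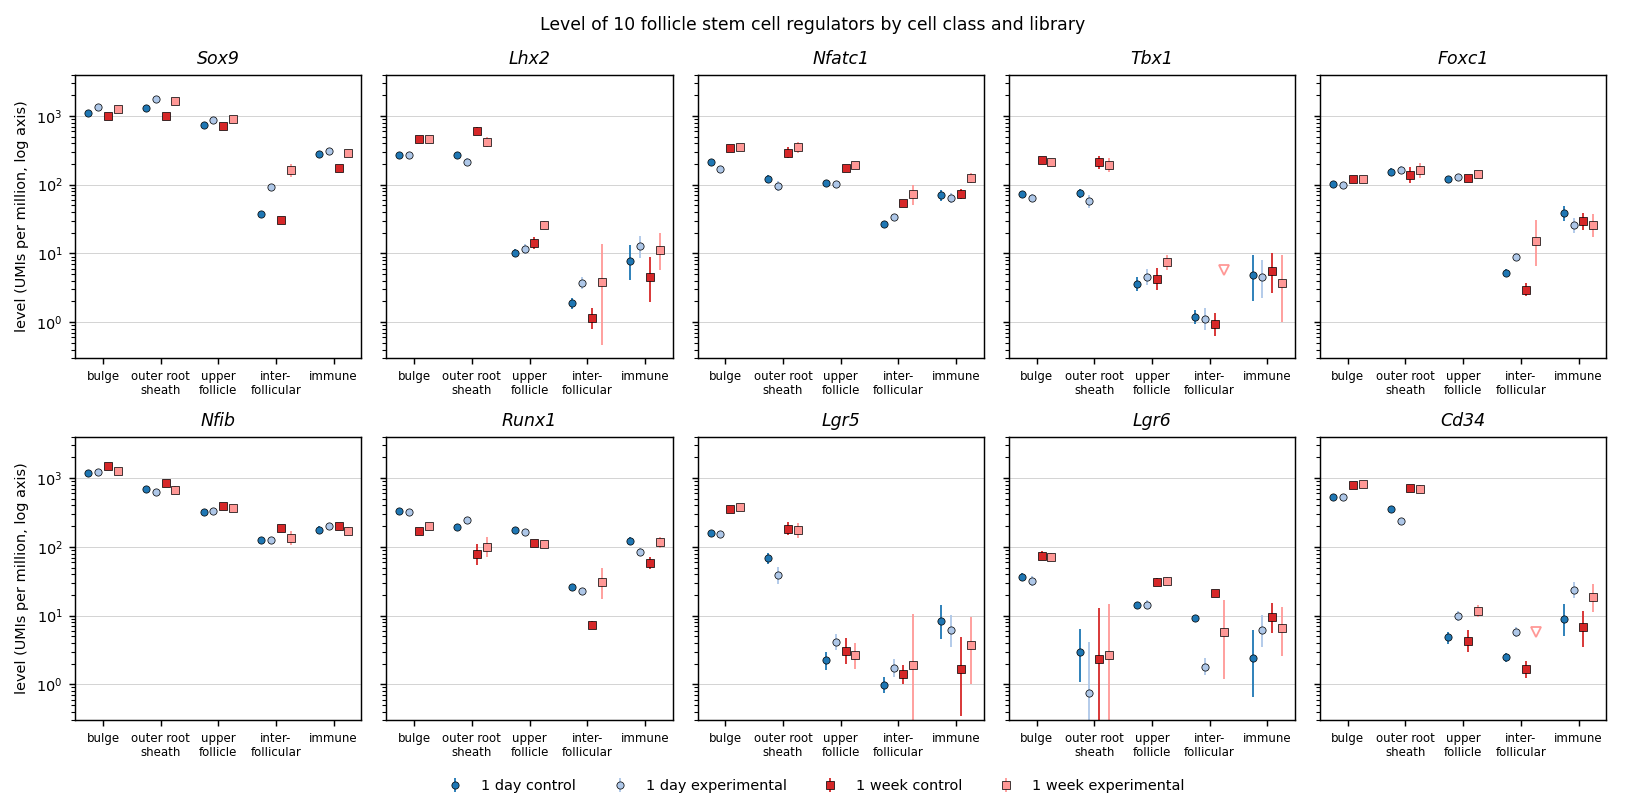
Level of each member in CPM (log axis) in the 4 compared classes and in immune cells, for the control (dark) and experimental (light) libraries at 1 day (circles) and 1 week (squares); bars are exact Poisson 95% intervals that cover counting error only, and open triangles mark the level that 0 UMIs allow. Bulge pairs lie close together for all members, while Lgr6 in interfollicular-like cells is 1.82 CPM in the experimental and 9.15 CPM in the control library at 1 day.

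In bulge-like cells the 10 genes differed little between the genotypes. None of the 10 members differed by 2-fold or more at either time point, where 4.87% of the 10759 genes tested did so at 1 day and 6.54% of 10402 at 1 week. For a list of 10 genes this count lies near those shares and does not set the members apart. The median log2 ratio of the members was -0.03 at 1 day and 0.03 at 1 week, and that of all genes tested was 0.04 and 0.06. At 1 week the median was 0.31 without removal of doublets and 0.55 among cells chosen by UMIs of at least 3 bulge markers. The choice by markers took 3524 control and 2458 experimental cells at 1 week, and 6354 and 4831 at 1 day. These are far more cells than the class held. Single members passed 2-fold at 1 day when the experimental cells of 1 hashtag were set against all control cells, Lgr5 (-1.05) and Cd34 (-1.04) with hashtag 1 and Tbx1 (-1.09) with hashtag 3. Called cells were lower in these 3 genes in both libraries, and between control and experimental hashtags their ranges overlapped. Trp63 itself was lower in these cells, with 1-day and 1-week log2 ratios of -0.50 [-0.60 to -0.40] and -0.63 [-0.75 to -0.51].

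Sox9, the lineage factor, was higher in experimental bulge-like cells at both times. At 1 day the level was 1362 CPM, against 1087 CPM in control cells, a log2 ratio of 0.33 [0.27 to 0.38]. In the 1-week libraries it was 1250 against 1013 CPM, a ratio of 0.30 [0.23 to 0.38]. The share of Sox9-positive cells was likewise higher, 82.8% against 75.5% at 1 day and 79.7% against 73.3% at 1 week. In immune cells the Sox9 share was 11.4% in the control and 24.4% in the experimental library at 1 day, and 12.7% and 15.6% at 1 week. Markers of other cell types in the bulge-like cells at 1 day summed to 118 against 5.61 CPM for Merkel cells, 159 against 2.38 CPM for erythroid cells and 35.2 against 6.29 CPM for melanocytes. At 1 week the sums were 65.7 against 4.50 CPM, 0.719 against 1744 CPM and 0.359 against 0.409 CPM. Their part in the Sox9 values was not tested. The Merkel list includes Krt8 and Krt18, which also lead a cluster of 3907 experimental cells and 1 control cell at 1 day. Its sum thus does not single out Merkel cells.

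Lhx2, the bulge maintenance factor, was 268 against 273 CPM at 1 day and 468 against 462 CPM at 1 week. Its log2 ratios of -0.03 [-0.14 to 0.08] and 0.02 [-0.10 to 0.13] have intervals that include 0. Nfatc1, the quiescence factor, was lower at 1 day, 172 against 215 CPM, a log2 ratio of -0.32 [-0.46 to -0.19]. The ratio was -0.04 [-0.12 to 0.03] among cells chosen by UMIs of at least 3 markers, and 0.18 [-0.18 to 0.51] with the experimental cells of hashtag 1 set against all control cells. Cells called for a control hashtag had more Nfatc1 than the whole class, 262 to 292 CPM, and experimental hashtag 1 (243 CPM) lay below each of them. The 1 week libraries had 353 against 345 CPM, and the ratio was 0.03 [-0.10 to 0.17]. The Nfatc1 share was 26.0% against 32.3% at 1 day and 44.2% against 40.0% at 1 week. The 2 time points were made with different kits, and the difference between them was not tested.

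Tbx1, the self-renewal factor, was 64.2 against 74.3 CPM at 1 day, with an interval that spans 0 (-0.21 [-0.44 to 0.02]), and 214 against 225 CPM at 1 week. Foxc1 was 99.4 against 101 CPM at 1 day and 122 against 121 CPM at 1 week. Nfib was 1207 against 1173 CPM at 1 day and 1272 against 1479 CPM at 1 week. The Nfib ratio at 1 week, -0.22 [-0.28 to -0.15], stood beside a positive share of 88.5% against 94.5%. The ratio was 0.17 [0.13 to 0.21] in the larger set of cells chosen by markers and 0.03 [-0.04 to 0.09] without removal of doublets. Runx1, which promotes activation, was 324 against 330.3 CPM at 1 day and 204 against 168 CPM at 1 week, where its log2 ratio was 0.28 [0.09 to 0.46].

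Among the receptors, Lgr5 was 153 against 161 CPM at 1 day and 385 against 349.6 CPM at 1 week, with log2 ratios of -0.07 [-0.22 to 0.08] and 0.14 [0.01 to 0.27]. Lgr6 was 32.1 against 36.6 CPM and 70.8 against 74.4 CPM, and both intervals include 0. The surface marker Cd34 was 533 against 528 CPM at 1 day and 827 against 783 CPM at 1 week. Its share of positive cells was 53.5% against 58.2% at 1 day and 66.9% against 67.4% at 1 week. Without thinning the Cd34 shares were 63.2% against 66.3% and 83.0% against 81.3%. Genes induced by enzymatic dissociation summed to a log2 ratio of 0.30 in bulge-like cells at 1 day and -0.01 at 1 week, and their part in these values was not tested.

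**Figure D2:**
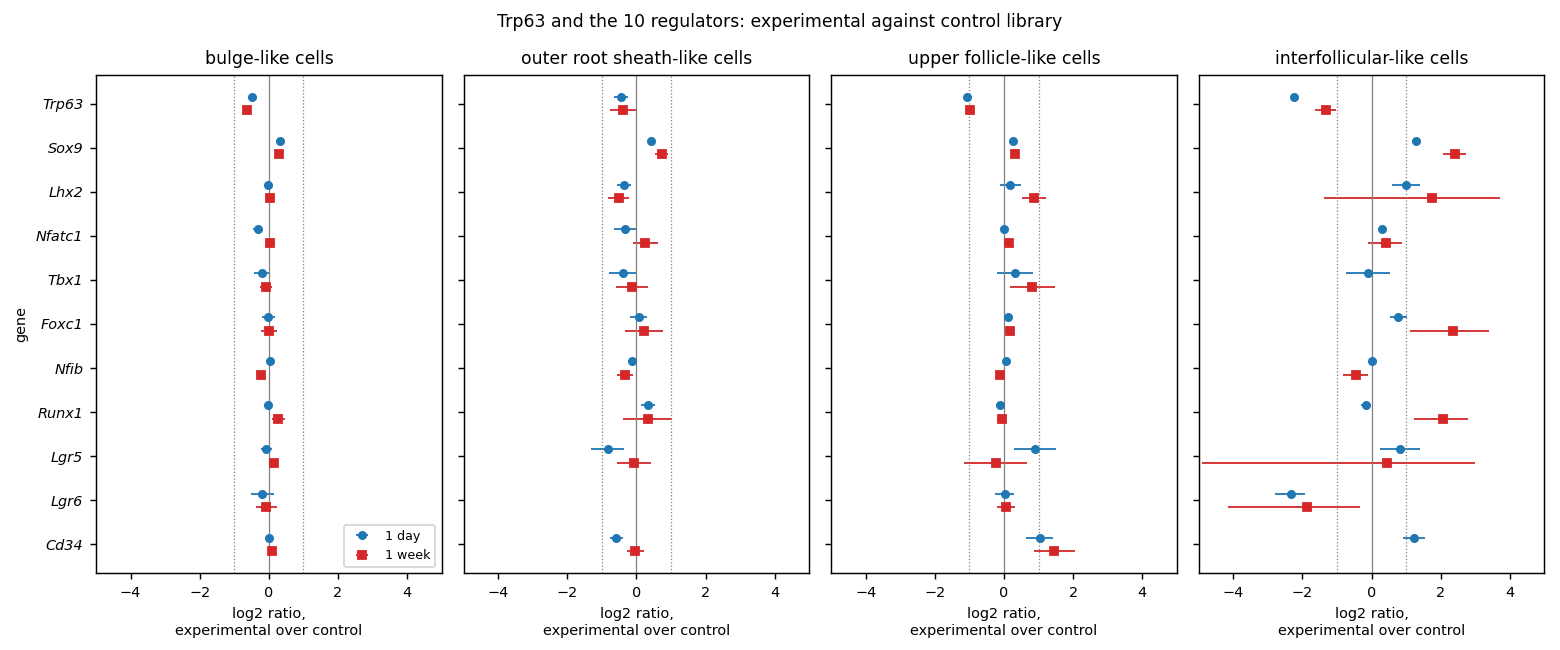
Log2 ratio of the experimental over the control library for Trp63 and each member with enough UMIs in the 4 cell classes at 1 day (circles) and 1 week (squares); bars are 95% counting intervals, the solid line marks equal levels and dotted lines mark 2-fold. Members lie between -0.32 and 0.33 in bulge-like cells and spread far wider in interfollicular-like cells.

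Hashtag antibodies were present in the 1-day matrices, but the labels do not say what each marks. Few of the bulge-like cells were called for 1 of 3 hashtags, 135, 100 and 92 of 1737 control and 68, 57 and 54 of 1061 experimental cells. Among them the ranges of the experimental and control hashtags overlapped for 8 of 10 members. For all genes the share with overlapping ranges was not counted, here or in the other classes. These counts of members thus have no background beside them. Sox9 was among the 8, at 1232 to 1710 CPM in control and 1291 to 1749 CPM in experimental hashtags. Each control hashtag lay above the 1087 CPM of the whole control class. Lgr6 was also higher in called control cells, at 53.2 to 101 CPM beside 36.6 CPM in the class. How the called cells divided between the clusters of this class was not counted. The Sox9 overlap is therefore no check of the Sox9 difference over the whole class. The exceptions were Nfatc1, at 180 to 243 CPM in experimental and 262 to 292 CPM in control hashtags, and Nfib, at 921 to 999.8 CPM in experimental and 1067 to 1135 CPM in control hashtags. Over the whole class Nfib had the other order, at 1207 against 1173 CPM. Called cells had lower Cd34 in both libraries, 240 to 367 CPM in control and 256 to 307 CPM in experimental hashtags, than the whole class. Lgr5, at 56.4 to 101 CPM in control and 77.8 to 105 CPM in experimental hashtags, and Tbx1, at 38.6 to 53.1 CPM and 34.8 to 53.5 CPM, were likewise lower than in the whole class in both libraries.

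The bulge-like class held a pair of main clusters at each time point that the members told apart, and at 1 week also 9 experimental Angptl7-led cells that had no control cells beside them. Krt24-led cells, 1308 and 838 at 1 day, carried most of the Lgr5, at 215 CPM in control and 192 CPM in experimental cells. Aspn-led cells, 429 and 223, had 9.12 and 9.90 CPM of Lgr5 but 100.4 and 97.7 CPM of Lgr6, which was 14.0 and 14.6 CPM in Krt24-led cells. Each receptor was thus higher in a different cluster, in both genotypes. Cd34 was also higher in Krt24-led cells, at 646 and 622 CPM, than in Aspn-led cells, at 194 and 199 CPM, while Nfatc1 was lower, at 166 and 135 CPM compared with 355 and 309 CPM.

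At 1 week the split was the same in kind. Krt24-led cells, 460 and 431, had 403 and 457 CPM of Lgr5 and 45.9 and 36.4 CPM of Lgr6. Pthlh-led cells, 65 and 83, had 12.1 and 17.0 CPM of Lgr5 and 256 and 242 CPM of Lgr6. Nfatc1 was 733 and 691 CPM in Pthlh-led cells and 284 and 287 CPM in Krt24-led cells.

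The higher Sox9 of experimental bulge-like cells was seen in the Krt24-led clusters, though the difference between clusters was not tested. There Sox9 was 929 CPM in control and 1307 CPM in experimental cells at 1 day, a log2 ratio of 0.49 [0.43 to 0.56], and 961 and 1220 CPM at 1 week, 0.34 [0.26 to 0.43]. In Aspn-led cells it was 1534 and 1566 CPM, 0.03 [-0.07 to 0.13], and in Pthlh-led cells 1345 and 1441 CPM, 0.10 [-0.08 to 0.27]. Trp63 was lower in the Krt24-led clusters too. Its log2 ratio was -0.76 [-0.88 to -0.63] and -0.83 [-0.97 to -0.69] in Krt24-led cells at 1 day and 1 week, 0.15 [-0.03 to 0.33] in Aspn-led cells and -0.10 [-0.35 to 0.15] in Pthlh-led cells. Whether the 2 differences are linked was not tested. Foxc1 was lower in Pthlh-led cells, 133 against 229 CPM, a log2 ratio of -0.78 [-1.29 to -0.28] over few cells.

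**Figure D3:**
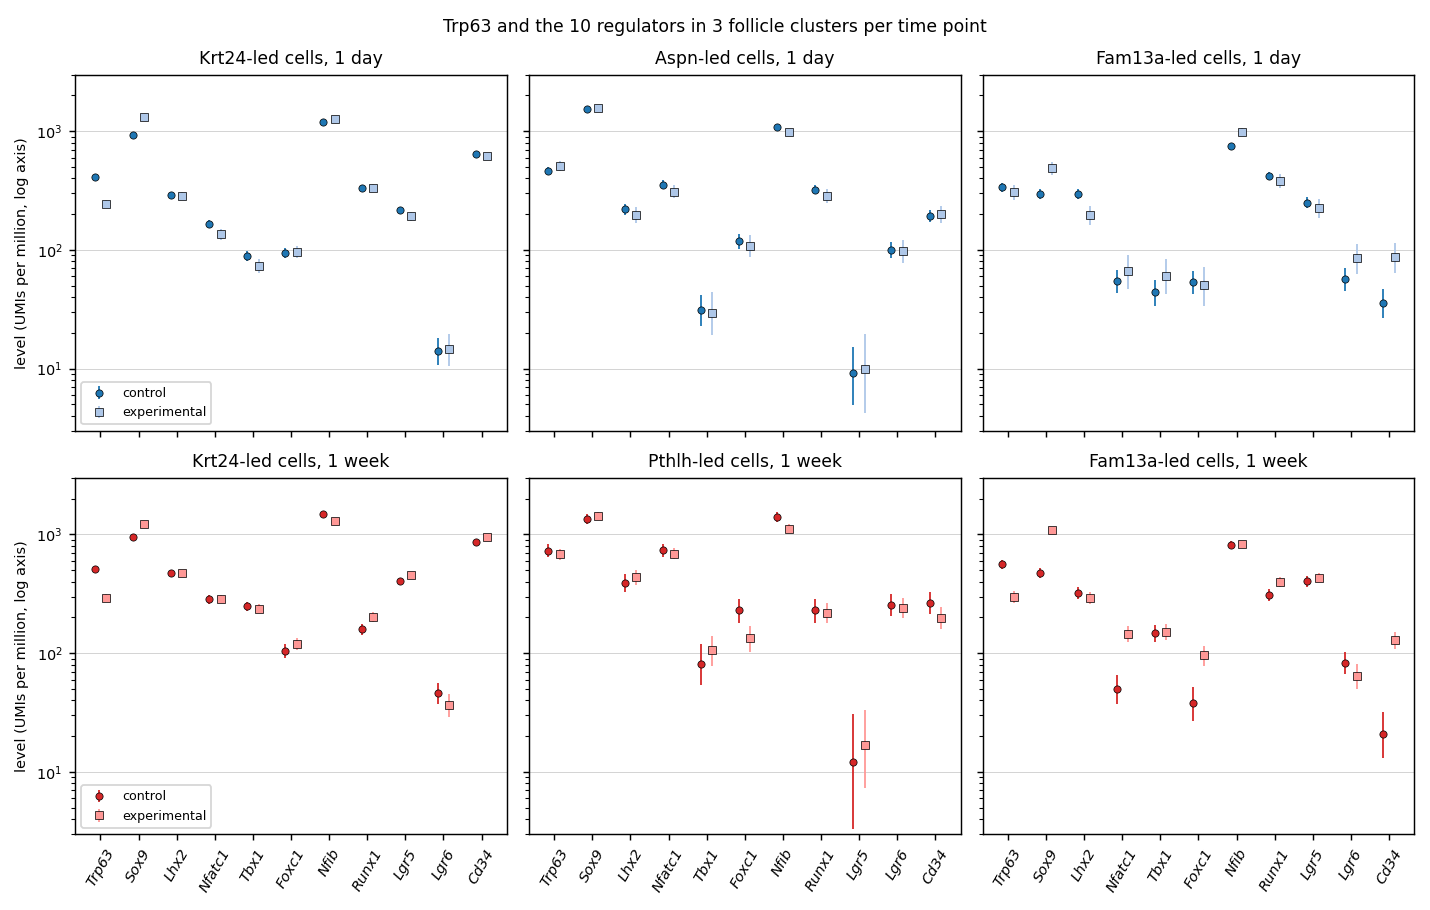
Level of Trp63 and each member in CPM (log axis) in the clusters of the bulge-like class and in the unnamed Fam13a-led cluster, control (circles) and experimental (squares), at 1 day (top) and 1 week (bottom); bars are exact Poisson 95% intervals. Lgr5 is high in Krt24-led cells and low in Aspn-led and Pthlh-led cells in both genotypes, and Lgr6 shows the opposite order.

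Outer root sheath-like cells showed lower bulge surface markers and higher Sox9 at 1 day. None of the 9 members with enough UMIs differed by 2-fold or more, against 6.68% of 8687 genes tested. Their median log2 ratio was -0.33, and that of all genes was 0.00. Cd34 was 239.5 against 358 CPM, a log2 ratio of -0.58 [-0.77 to -0.39], and its share of positive cells was 28.0% against 43.7%. Lgr5 was 38.3 against 68.1 CPM, -0.83 [-1.32 to -0.36]. Lhx2 and Nfatc1 were also lower, with log2 ratios of -0.35 [-0.56 to -0.15] and -0.33 [-0.65 to -0.02]. Sox9 was the clearest on the other side, 1736 against 1287 CPM, 0.43 [0.35 to 0.51], and Runx1 was 248 against 197 CPM. Over the 3 hashtags the control and experimental ranges overlapped for 9 of 10 members, with 15 to 74 control and 18 to 36 experimental cells per hashtag, and Lgr6 at 0 UMIs in all but 1 control hashtag. Among the 9 were Sox9 (1246 to 1643 and 1344 to 2166 CPM), Cd34, Lgr5, Lhx2 and Runx1. The exception was Nfatc1, at 125 to 179 CPM in control and 75.3 to 120 CPM in experimental hashtags. Lgr6 had 6 UMIs in control and 1 in experimental cells, too few for a ratio.

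The markers of the class differed beside these values. Upper follicle markers summed to 4444 CPM in control and 9713 CPM in experimental outer root sheath-like cells at 1 day, and bulge markers were lower in the experimental cells, as given above. Their part in the ratios was not tested. Without removal of doublets, with 1048 control and 465 experimental cells, Cd34 had a log2 ratio of 0.04 and Lhx2 of 0.18. The direction of these 2 genes thus rests on whether doublets were removed. Among cells chosen by UMIs of at least 3 markers Cd34 had 0.74 and Lgr5 0.51. That choice took 2647 control and 1260 experimental cells, against 554 and 364 in the class. It covers many cells outside the class and does not show the direction within it.

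At 1 week, with 108 and 83 cells, Sox9 was 1659 against 1001 CPM in outer root sheath-like cells, 0.73 [0.55 to 0.91], and positive in 86.7% against 63.0% of cells. Lhx2 was 422 against 604 CPM, -0.52 [-0.81 to -0.22], and Nfib 678 against 856 CPM, -0.34 [-0.57 to -0.10]. Among cells chosen by UMIs of at least 3 markers the ratios were 0.61 [0.50 to 0.72] for Lhx2 and 0.06 [0.02 to 0.11] for Nfib. That choice took 2926 control and 1439 experimental cells, most of them outside the class, so it does not show the sign within the class. Cd34 (694 against 709 CPM) and Lgr5 (175 against 185 CPM) did not show the 1-day difference. None of 9 members reached 2-fold, against 8.66% of all genes, and the median was -0.03. Sox9 was thus higher at both time points, and its log2 ratio stayed above 0 in this class under all alternatives that gave a value. The lowest of these was 0.06 at 1 day and 0.51 at 1 week.

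**Figure D4:**
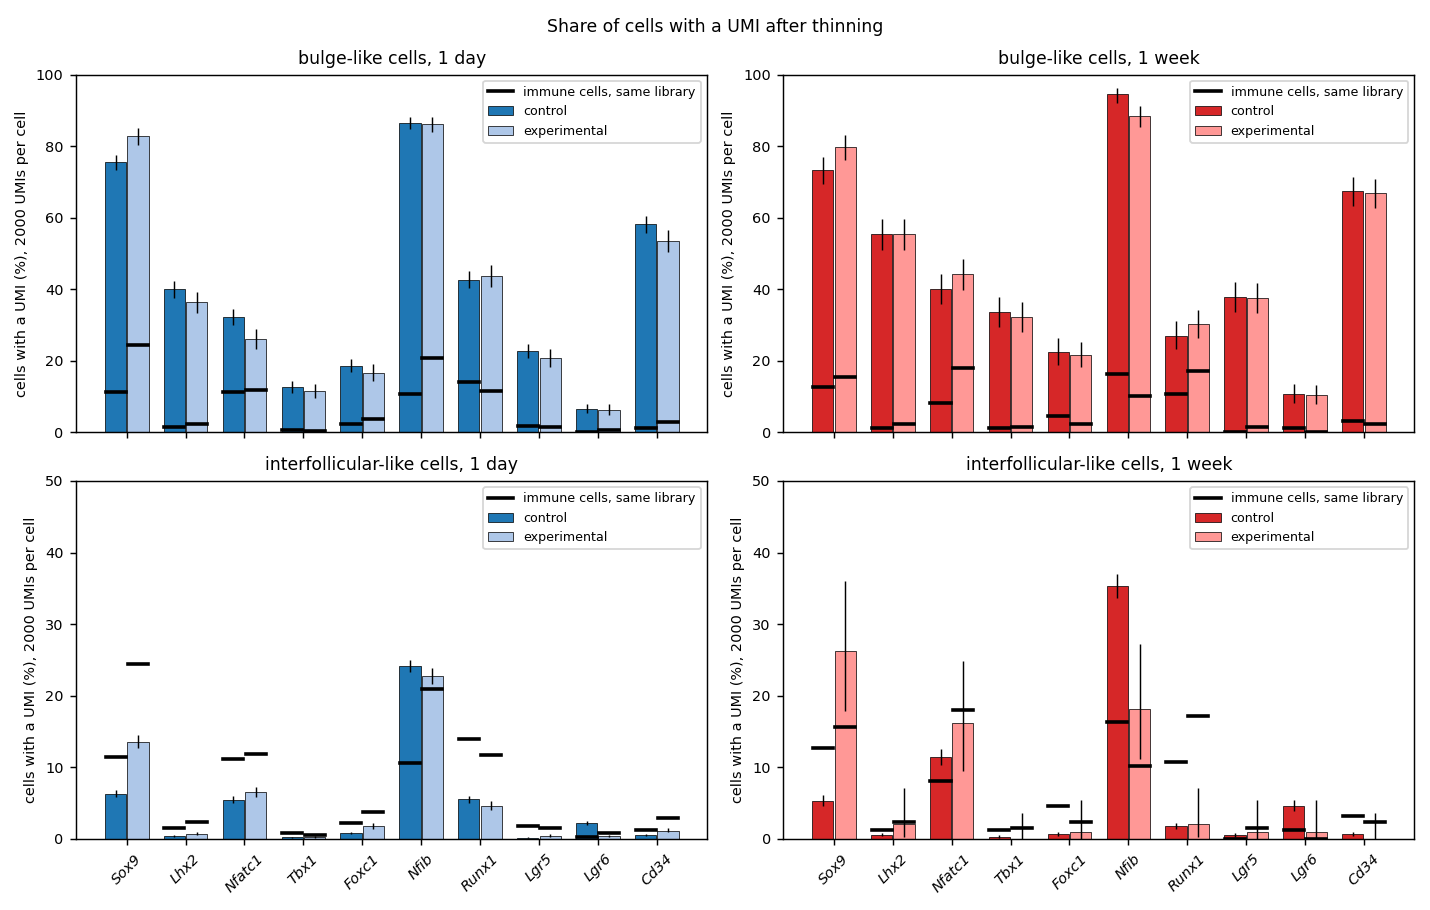
Percentage of bulge-like (top) and interfollicular-like (bottom) cells with at least 1 UMI of each member after thinning to 2000 UMIs, with exact binomial 95% intervals; black lines give the share in immune cells of the same library, and the vertical scales differ between rows. Bulge-like Cd34 shares lie between 53.5% and 67.4%, far above the immune lines, while interfollicular-like Cd34 shares lie below them.

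Upper follicle-like cells kept the broadly expressed members and had little of the bulge-restricted ones in either genotype. Sox9 was 882 against 735 CPM at 1 day, 0.26 [0.23 to 0.30], and 888 against 719 CPM at 1 week, 0.30 [0.25 to 0.36]. With classes named in the control library and transferred to the experimental one, the Sox9 ratio turned to -0.17 [-0.20 to -0.14] at 1 day and was -0.0032 [-0.05 to 0.05] at 1 week. Over the 1-day hashtags Sox9 did not overlap, at 643 to 880 CPM in control and 890 to 1145 CPM in experimental cells of the main class. Tbx1, Nfib and Cd34 were also higher in experimental hashtags with no overlap, and the other 6 members overlapped. The Tbx1 hashtag levels rest on 11 to 22 UMIs each. Over the whole class Tbx1 was 4.55 against 3.65 CPM, near the 4.52 against 4.78 CPM of immune cells. Foxc1 was 129 against 119.9 CPM and 142 against 125 CPM, and its ratio also turned with transferred classes, to -0.38 and -0.15. Nfatc1 was 103 against 104 CPM and 192 against 174 CPM. Lgr6, a marker of this region, was 14.5 against 14.3 CPM at 1 day and 32.0 against 31.0 CPM at 1 week, the smallest differences among the receptors here.

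Cd34 was the member at 2-fold or more in upper follicle-like cells, 1 of 10 at each time, where 3.09% of genes were higher by that much at 1 day and 5.13% at 1 week. It was 9.88 against 4.82 CPM at 1 day, 1.04 [0.65 to 1.43], and 11.7 against 4.31 CPM at 1 week, 1.44 [0.85 to 2.07]. The positive shares, 1.68% against 0.753% at 1 day, lay below those of immune cells, 2.97% against 1.27%. The immune shares at 1 week, given with the Fam13a-led cells, had the other order. How much of the Cd34 level here is free RNA was not tested. With a floor of 3000 UMIs per cell the Cd34 ratio was 0.53 at 1 day and 0.20 at 1 week. Lgr5 at 1 day, 4.17 against 2.24 CPM, had shares of 0.871% against 0.340% that also lay under the immune shares of 1.48% against 1.78%. Lhx2 at 1 week, 25.9 against 14.1 CPM, 0.87 [0.53 to 1.23], had shares of 3.36% against 2.16%, with 2.34% against 1.30% in immune cells and overlapping intervals. The median log2 ratio of the members was 0.14 at 1 day and 0.16 at 1 week, beside 0.02 and 0.08 for all genes.

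In interfollicular-like cells Lgr6, the stem cell receptor of this compartment, was lower and the follicle genes were listed at low levels. At 1 day Lgr6 was 1.82 against 9.15 CPM, a log2 ratio of -2.33 [-2.78 to -1.91], and its positive share was 0.396% against 2.20%. Of 10 members 1 was lower by 2-fold or more, where 7.48% of genes were, and 2 were higher, where 7.58% of genes were. Lgr6 was also lower within the basal cells, at 8.94 against 23.8 CPM, -1.41 [-2.26 to -0.68], with shares of 1.91% against 4.26%. Over the 3 hashtags it was 1.09 to 3.29 CPM in experimental and 5.73 to 11.6 CPM in control interfollicular-like cells, with no overlap. Sox9, Nfatc1, Foxc1 and Cd34 were higher in experimental hashtags here with no overlap, and the other 5 members overlapped. In suprabasal cells it was 1.35 against 0.948 CPM, below the immune level of 6.16 against 2.39 CPM. Basal cells made up 472 of 5304 experimental but 4599 of 9521 control interfollicular-like cells, and the ratio of the whole class includes that difference in make-up.

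Of all Lgr6 UMIs, 40.1% in the control but 6.7% in the experimental library came from interfollicular-like cells at 1 day, which made up 51.3% and 27.4% of the cells used. Krt8-led cells, 3907 in the experimental library and 1 in the control, held 95 of its 741 Lgr6 UMIs, at 6.14 CPM. At 1 week Lgr6 was 5.74 against 21.1 CPM, -1.88 [-4.16 to -0.32], from 3 UMIs in 99 experimental cells and 625 UMIs in 3365 control cells. Within basal cells it rested on 1 UMI in 18 cells. Lgr6 was lower under each alternative run, from -3.07 to -0.68 at 1 day and from -2.13 to -0.30 at 1 week. The smallest size in both came from the choice by at least 3 markers, which took nearly whole libraries. All alternatives were run on the whole interfollicular-like class and none on basal cells alone. They thus carry the difference in make-up and do not check Lgr6 within basal cells. Lgr6 in bulge-like cells, by contrast, had ratios of -0.19 and -0.07, both with 0 in the interval. The difference between these classes was not tested.

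Sox9 was 91.0 against 37.1 CPM in interfollicular-like cells at 1 day, 1.29 [1.21 to 1.38], and its share was 13.6% against 6.28%. Immune cells of the same libraries had Sox9 shares of 24.4% against 11.4%, but at 305 against 278 CPM, so they set no level of evenly spread free RNA for Sox9. How much of the interfollicular Sox9 is free RNA was not tested. Without removal of doublets the Sox9 ratio was 0.41, and by at least 3 markers 0.27. The choice by markers took 18543 of 18566 control and 19334 of 19340 experimental cells here. Its ratios are thus those of nearly the whole libraries and include the proportions of the classes. Cd34 (5.77 against 2.47 CPM) and Lhx2 (3.78 against 1.89 CPM) were likewise positive in a smaller share of cells than in the immune class. In the nearly whole libraries taken by at least 3 markers the Cd34 ratio was -0.11, that of Lhx2 -0.27 and that of Lgr5 -0.35. Foxc1, at 8.97 against 5.26 CPM, was lower in both libraries than in immune cells, at 25.9 against 38.9 CPM. Only 3.79% against 2.28% of the immune cells were positive for it, so they are an uncertain background for Foxc1 too. Of the experimental interfollicular-like cells 3622 lay in a Slpi-led cluster that held 2 control cells. Dissociation genes summed to a log2 ratio of 1.09 here, and the Merkel list, which includes Krt8 and Krt18, to 340.8 against 0.4 CPM. The part of both was not tested.

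At 1 week, with 99 experimental cells, 4 of 10 members were higher by 2-fold or more, where 13.0% of genes were. Of these 4, Sox9, Runx1 and Foxc1 had intervals that exclude 0, and Lhx2 rested on 2 experimental UMIs. Of the 99 experimental cells 74 lay in an Aldh1a3-led cluster with 0 control cells, so these ratios set cells of different clusters against each other. Sox9 was 163 against 30.7 CPM, 2.41 [2.07 to 2.73], with a share of 26.3% against 5.26% and 15.6% against 12.7% in immune cells. Runx1 was 30.6 against 7.38 CPM from 16 against 219 UMIs, and Foxc1 15.3 against 2.97 CPM. Their positive shares, 2.02% against 1.75% for Runx1 and 1.01% against 0.684% for Foxc1, differed little. Foxc1 also lay below immune cells in level (26.0 against 29.2 CPM) and share (2.34% against 4.56%). Upper follicle markers summed to 12688 against 1041 CPM in these cells, and dissociation genes to a log2 ratio of 0.76. The part of both was not tested. Nfib was lower, 136 against 186 CPM, -0.46 [-0.81 to -0.12]. Cd34 and Tbx1 had 0 UMIs in the experimental cells, which allows up to 5.74 CPM at a limit of 3 UMIs, above their control levels of 1.68 and 0.944 CPM, so no difference was detectable at this depth. Lgr6 was the 1 lower member of at least 2-fold whose interval excludes 0. Counting genes at 0 UMIs as lower, the members at that size were 3 of 10, Cd34 and Tbx1 among them, where 18.1% of genes were.

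A cluster led by Fam13a was left without a name, because markers of other lineages (Dct at 1 day, Hoxc13 at 1 week) stood among its leading genes. It carried high Lgr5 in both genotypes, positive in 30.8% of control and 31.5% of experimental cells at 1 day, and at 402 and 434 CPM at 1 week. Lhx2 was 296 and 196 CPM, then 322 and 292 CPM. Here Cd34 differed: it was 86.9 against 35.6 CPM at 1 day, 1.29 [0.70 to 1.87], and 129 against 21.1 CPM at 1 week, 2.61 [1.95 to 3.35]. Its positive share at 1 day was 7.69% against 5.40%, with overlapping intervals, and 2.97% against 1.27% in immune cells. Over the 1-day hashtags Cd34 overlapped, at 0 to 41.1 CPM in control and 0 to 119 CPM in experimental Fam13a-led cells, while Lhx2 (275 to 360 and 0 to 249 CPM) and Tbx1 (56.8 to 103 and 0 to 39.0 CPM) were lower without overlap. These ranges rest on 10, 9 and 5 control and 8, 2 and 5 experimental cells. The experimental hashtags held 2, 0 and 1 Tbx1 UMIs. Over the whole cluster at 1 day Tbx1 had the other order, at 60.8 against 43.8 CPM. At 1 week the Cd34 share was 17.3% against 2.37%, where immune cells had 2.34% against 3.26%. Summed melanocyte markers in the Fam13a-led cells were 571 against 78.1 CPM at 1 day and 47.5 against 3.01 CPM at 1 week. Of the Merkel list, which includes Krt8 and Krt18, 3 of 7 genes had UMIs in the experimental cells at both times. The list summed to 135 against 7.53 CPM at 1 day and to 111 CPM at 1 week, with 0 UMIs in control cells. Their part in the Cd34 values was not tested.

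At 1 week 4 of 10 members were at least 2-fold higher in the Fam13a-led cells, where 8.87% of genes were, and at 1 day 1 of 10, where 4.04% were. Beside Cd34 these were Nfatc1 (145 against 50.1 CPM, 1.53 [1.07 to 2.02]), Foxc1 (95.9 against 38.1 CPM, 1.33 [0.78 to 1.91]) and Sox9 (1095 against 474 CPM, 1.21 [1.05 to 1.36]). Tbx1 (151 against 148 CPM) and Nfib (825 against 817 CPM) were close. Summed bulge markers were 8121 against 5632 CPM at 1 week, and dissociation genes had a log2 ratio of 0.37, and their part was not tested. The cluster held 389 control and 143 experimental cells at 1 day, then 169 and 168.

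Over whole libraries the ratios also include the proportions of the classes. At 1 week Sox9 was 471 against 230 CPM over all cells used, a log2 ratio of 1.03, and the median of the members was 0.55 beside 0.09 for all genes. Bulge-like cells made up 10.1% of the experimental and 6.21% of the control library at 1 week, and 5.49% against 9.36% at 1 day. At 1 day the median over all cells was -0.18, beside -0.02 for all genes.

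A list of 30 other regulators of follicle cells was read in the bulge-like class in the same way. At 1 day 1 of 30 was higher by 2-fold or more, where 3.65% of genes were, and 0 were lower, where 1.22% were. It was Sox4, a factor of progenitor states, at 85.1 against 15.5 CPM, 2.46 [2.12 to 2.81]. At 1 week Sox4 was 21.6 against 10.2 CPM, 1.08 [0.38 to 1.81], and Cux1, a homeodomain factor, 11.5 against 5.72 CPM, 1.01 [0.06 to 2.03], 2 of 30 in all, where 3.86% of genes were higher. None was lower at 1 week (0 of 30), where 2.67% of genes were. The medians of the 30 genes were 0.03 and 0.19.

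Across 19 class values of the control libraries, genes with the pattern most like each member were named by Pearson's r of log2(CPM + 1) among 12008 genes, as a description over classes that share libraries. The values pool 10 classes of the 3′ kit at 1 day and 9 of the 5′ kit at 1 week. Each gene was centred within its time point, and so within its kit, before they were pooled. For Sox9 it was Foxc1 (0.97), also a member, then Itgb8 and Sostdc1. Nfatc1 was most like Postn (0.95), and Lhx2 most like Thsd1 (0.97). Lgr5 was most like Il31ra (0.97), then Fzd2 and Grem1. Cd34 was most like Trabd2b (0.97), Nfib most like Golim4 (0.97), Tbx1 most like B3gnt8 (0.94) and Runx1 most like Lpgat1 (0.94). The best match of Lgr6 was the lowest of the members, Hoxb3os (0.90).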

How the data were processed

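Single-cell libraries of mouse epidermis were made with a 10x Genomics 3′ kit at 1 day and a 5′ kit at 1 week, per the labels' protocols. The authors deposited whole-number UMI counts per gene and barcode, unnormalised. Cell Ranger 5.0.1, Seurat and build mm10 are named per the submitters' processing notes. The deposited barcode and feature lists hold names and no other measured value. Members and gene lists were chosen with earlier results of these data known.

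Cells with 2000 or more UMIs, 300 or more genes and no more than 15% mitochondrial UMIs were used. The highest Scrublet scores were removed as doublets at 0.8% per 1000 barcodes. Each time point was clustered over both libraries (scanpy 1.11.5, 2000 variable genes, 30 components, 15 neighbours, Leiden resolution 1) without the members, the other regulators, Trp63 or dissociation genes. Clusters were named from marker lists, with limits set after the data were seen, and clusters in which marker lists of several non-epithelial lineages, or 1 such list strongly, were raised entered no comparison. The Fam13a-led cluster was compared without a name, and single markers of other lineages stood among the leading genes of some named clusters. Counts were summed per class and divided by class totals (CPM, exact Poisson intervals). Ratios used genes with at least 20 UMIs in both libraries together (exact conditional binomial intervals), and shares used Clopper-Pearson intervals at 95%. A call was a 2-fold difference, and no test was run with 1 library per group. All 10 members are described whatever their values, and of the 30 other regulators those at 2-fold or more with an interval that excludes 0 in bulge-like cells are named. The ratio script was tested on simulated data. Alternatives covered scaling, the UMI floor, doublets, clustering, naming, hashtags and the mean over cells.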

Additional observations from a re-analysis of the deposited data

Results flagged for a closer look

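In 7 comparisons a member had log2 ratios on opposite sides of 0 in 2 of the 4 cell classes at a time point, or at both time points in a class, with both intervals excluding 0 and a difference of at least 1. None of these differences was tested, and how many of all genes meet the same rule was not counted. Ratios among cells chosen by markers are given beside them. That choice took more cells than each class held, and nearly all cells of both libraries for the interfollicular-like class. It thus does not show the direction within a class. Lhx2 at 1 day had a log2 ratio of -0.35 in outer root sheath-like and 1.00 in interfollicular-like cells, a difference of 1.35. The second was -0.27 among cells chosen by markers. Lhx2 at 1 week had -0.52 in outer root sheath-like and 0.87 in upper follicle-like cells, 1.39 apart. The first was 0.61 among cells chosen by markers. Runx1 in interfollicular-like cells had -0.16 at 1 day and 2.05 at 1 week, 2.21 apart, with different kits and 99 experimental cells at 1 week. Lgr5 at 1 day had -0.83 in outer root sheath-like cells, against 0.90 in upper follicle-like cells (1.72 apart) and 0.82 in interfollicular-like cells (1.65 apart). Among cells chosen by markers these Lgr5 ratios were 0.51, -0.02 and -0.35. Cd34 at 1 day had -0.58 in outer root sheath-like cells, against 1.04 in upper follicle-like cells (1.62 apart) and 1.23 in interfollicular-like cells (1.81 apart). Among cells chosen by markers the first was 0.74 and the last -0.11. The upper follicle-like ratio was 0.23 or more under each alternative. In upper follicle-like and interfollicular-like cells at 1 day, Lhx2, Lgr5 and Cd34 lay between 0.987 and 11.6 CPM.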

How the results depend on the processing

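No paired analysis was possible because each group is 1 library, and no replicate could be left out. The members' median log2 ratio in bulge-like cells was -0.03 at 1 day, and 0.14 without removal of doublets, -0.22 for hashtag 1 and -0.26 for hashtag 2 alone. At 1 week it was 0.03, with 0.31 without removal of doublets and 0.55 by at least 3 markers. In outer root sheath-like cells it was -0.33 at 1 day, with 0.20 without removal of doublets, 0.34 by markers and -0.0058 for hashtag 1, and -0.03 at 1 week, with 0.60 by markers. In upper follicle-like cells it was 0.14 at 1 day, with -0.19 for classes transferred from the control library, 0.39 for hashtag 1 and 0.45 for hashtag 3, and 0.16 at 1 week, with -0.087 for transferred classes. In interfollicular-like cells it was 0.53 at 1 day, with 0.016 without removal of doublets, -0.18 by markers, 0.15 for hashtag 1 and 0.16 for hashtag 3. At 1 week it was 0.43, between -0.02 and 2.68 under 10 alternatives, and 1.09 without the 2 members at 0 UMIs. Cd34 in interfollicular-like cells at 1 day was 1.23, and -0.11 by markers. For this class the choice by markers took 18543 of 18566 control and 19334 of 19340 experimental cells at 1 day, nearly the whole libraries. In the other classes it also took more cells than the class held. The hashtag settings, chosen after seeing the data, set called experimental cells against all control cells. TMM scaling moved 3 and kept 73 of the single-gene ratios within their counting interval, the choice by markers moved 48 and no doublet removal 42. The cause of these moves was not tested. Floors of 3000 UMIs (1 day) and 500 UMIs (1 week) left no outer root sheath-like cluster and gave no value there. With 83 and 99 experimental cells, outer root sheath-like and interfollicular-like cells at 1 week are the thinnest classes.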

Other observations

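Members were also read in experimental cells that entered no comparison. The 3907 Krt8-led cells at 1 day, a group nearly without control cells, had 101 CPM of Sox9, 193 CPM of Nfib, 6.01 CPM of Cd34, 2.33 CPM of Lgr5 and 6.14 CPM of Lgr6. Slurp1-led cells, 1464 in number, had 98.8 CPM of Sox9, 95.2 CPM of Nfib and 5.39 CPM of Cd34. A cluster led by Ulk4, with markers of several lineages, held 1366 experimental and 55 control cells. In it Sox9 was 476 against 454 CPM, Cd34 58.1 against 22.0 CPM, and Lgr5 20.1 against 3.66 CPM, the last from 1 control UMI. At 1 week clusters left out as mixed held 26.6% of control and 26.2% of experimental cells. A Wfdc3-led one, with 187 experimental and 0 control cells, had 192 CPM of Lhx2, 205 CPM of Nfatc1, 154 CPM of Cd34 and 82.5 CPM of Lgr5. The other mixed clusters of at least 50 cells at 1 week had less of these 4 genes.

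Of all Cd34 UMIs at 1 day, 73.0% in the control and 60.7% in the experimental library came from bulge-like cells. For Lgr5 these shares were 58.6% and 54.3%, for Lhx2 53.1% and 48.0%, and for Nfatc1 20.6% and 12.9%. At 1 week these 4 members had the other order, with 54.3% and 62.7% for Cd34, 47.4% and 55.5% for Lgr5, 47.0% and 52.2% for Lhx2, and 15.02% and 19.5% for Nfatc1. Sox9 (17.5% and 17.02%) and Foxc1 (13.4% and 12.9%) had overlapping intervals at 1 week, as did Lgr6 at 1 day (15.5% and 16.6%), while Lgr6 was higher in the experimental library at 1 week (11.4% and 21.2%). Bulge-like cells themselves made up 9.36% of control and 5.49% of experimental cells at 1 day, then 6.21% and 10.1%. The UMI shares include these proportions.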
